A study of Mus musculus with 9 samples.

Results

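The genes described here encode the cytoplasmic complex that marks β-catenin for destruction and the Dishevelled proteins that act on it. They were taken by gene symbol, from a list made with earlier results of these data known: *Gsk3a* and *Gsk3b*, *Axin1*, *Axin2* and *Apc*, *Csnk1a1* and *Csnk1e*, and *Dvl1*, *Dvl2* and *Dvl3*. All 10 were found among the 55335 entries of each deposited file. Of these 10, 9 averaged 1 FPKM or more across the 9 libraries and were tested among 13011 genes, and *Axin2* was below that limit. FPKM counts fragments by kilobase of transcript and by the size of the library, so that levels can be compared between genes.

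The study asked how knockdown of mitofusin 1 (MFN1), a protein of the outer mitochondrial membrane that joins mitochondria, and of the histone variant H3.3 changes the transcripts of 8-cell mouse embryos. ICR zygotes made by in vitro fertilization were injected with nontargeting siRNA (control), with siRNA against *Mfn1* (MFN1-KD) or with siRNA against *H3f3a* and *H3f3b*, the genes of H3.3 (H3.3-KD), and were cultured to the 8-cell stage. Each group had 3 libraries, each made by Smart-Seq2 (oligo-dT primed and PCR amplified) from a pool of embryos. The labels give 5 to 10 embryos per group and the study's methods give 10, so the number behind each library is uncertain. The age of the females behind these libraries is not given in the sources used here, and siRNA leaves part of the target's transcript in place. The labels do not say that the pools came from separate fertilizations, so p-values measure the spread between these libraries, which may in part be technical. Both knockdowns were compared with the same control libraries.

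In the absence of a Wnt signal, AXIN and APC hold β-catenin while casein kinase 1 and then glycogen synthase kinase 3 phosphorylate it, which sends it to the proteasome. When Wnt binds Frizzled and LRP receptors, Dishevelled recruits AXIN to the membrane, the complex stops working and β-catenin enters the nucleus to act with TCF/LEF factors. Several steps are shared by paralogues, which makes it useful to see which copy the embryo uses. *Axin2* is itself a widely used target gene of the pathway.

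The targeted transcripts were low in the libraries labelled as knockdowns. *Mfn1* was at 15.4% of the control mean in MFN1-KD, *H3f3a* at 7.72% and *H3f3b* at 8.24% in H3.3-KD, with no overlap between groups. The call of *Mfn1* (limma adjusted p = 0.0431) was lost in 11 of 19 alternatives. Over all 19, the limma adjusted p ranged from 0.0244 to 0.158. Each of the 3 genes gave an exact permutation p of 0.1, two-sided, the smallest that 3 libraries against 3 can give. Between 21643 and 22507 entries were above 0 FPKM in control, 15577 to 20842 in MFN1-KD and 23655 to 24820 in H3.3-KD. The depth of the libraries is unknown. Of 15 markers of 8-cell and morula embryos, 13 had a control mean of at least 1 FPKM, and *Cdx2* and *Sox2* did not. The summed level of this list was 10598 to 14204 FPKM in control, 10720 to 14809 in MFN1-KD and 4468 to 6775 in H3.3-KD. Most of that sum was *Dppa5a*, at 12791 FPKM in control and 5322 in H3.3-KD, the 1 marker that was lower in H3.3-KD without overlap. Another 7 of the 15 were higher without overlap, beside 34.5% higher and 18.9% lower of all genes tested. Among the 7 was *Pou5f1*, at 7.24 ± 1.95 FPKM in control and 262 ± 175 in H3.3-KD. Of 15 cumulus and granulosa markers, 9 were at 0 in every control library and 3 in every H3.3-KD library, and the list summed to 16.2 to 30.1 FPKM in control, 10.6 to 19.9 in MFN1-KD and 39.1 to 76.2 in H3.3-KD. *Amhr2* held most of this, at 22.2 ± 6.99 FPKM in control and 49.1 ± 15.0 in H3.3-KD, *Dcn* reached 8.39 FPKM in H3.3-KD replicate 3, and the other 13 were at most 0.65 FPKM in every library. In H3.3-KD 4 of the 15 were higher than control without overlap and 0 were lower, beside 34.5% and 18.9% of all genes tested. The 13 low markers are not among the genes tested, and the part of these markers in the results was not tested.

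The stretches of 250 bases before the start site are shown for the kinase pair and for *Dvl2* and *Dvl3*, because in each pair one paralogue rose in H3.3-KD and the other did not pass the test. They are from RefSeq (GRCm38.p6), 5′ to 3′ on the strand of the gene, and capitals mark GC boxes, GGGCGG or its reverse complement CCGCCC.
*Gsk3a*, chr7:25237852-25238101, minus strand: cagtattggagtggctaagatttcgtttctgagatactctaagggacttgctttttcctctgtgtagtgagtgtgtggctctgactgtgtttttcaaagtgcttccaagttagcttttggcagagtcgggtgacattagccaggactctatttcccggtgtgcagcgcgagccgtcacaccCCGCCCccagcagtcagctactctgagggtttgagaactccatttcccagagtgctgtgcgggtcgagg
*Gsk3b*, chr16:38088751-38089000, plus strand: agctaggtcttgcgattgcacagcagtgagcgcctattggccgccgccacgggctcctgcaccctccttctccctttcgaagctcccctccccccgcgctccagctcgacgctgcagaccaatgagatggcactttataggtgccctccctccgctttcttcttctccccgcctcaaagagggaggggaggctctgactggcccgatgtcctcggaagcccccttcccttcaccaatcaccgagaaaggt
*Dvl2*, chr11:70000342-70000591, plus strand: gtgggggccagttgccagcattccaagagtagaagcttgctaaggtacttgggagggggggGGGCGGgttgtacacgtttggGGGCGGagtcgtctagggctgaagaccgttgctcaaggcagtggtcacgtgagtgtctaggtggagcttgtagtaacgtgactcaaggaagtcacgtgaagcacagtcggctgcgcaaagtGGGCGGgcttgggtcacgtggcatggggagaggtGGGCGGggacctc
*Dvl3*, chr16:20516736-20516985, plus strand: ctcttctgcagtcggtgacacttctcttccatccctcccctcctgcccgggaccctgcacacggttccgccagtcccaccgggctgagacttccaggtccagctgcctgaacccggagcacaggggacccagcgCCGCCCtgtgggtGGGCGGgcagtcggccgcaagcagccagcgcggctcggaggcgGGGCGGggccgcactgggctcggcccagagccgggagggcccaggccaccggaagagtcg

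The printed stretches held 1 GC box in *Gsk3a*, 0 in *Gsk3b*, 4 in *Dvl2* and 3 in *Dvl3*. Stretches not printed held 5 in *Dvl1*, 2 in *Axin2* and 2 to 6 in *Csnk1e*, by start site. *Dvl1* did not pass the test in H3.3-KD. The *Dvl3* stretch overlaps the antisense gene *Gm16618*. Over the full window of 300 bases, from 250 before to 50 after the start, a GC box on either strand was found in 35.7% of 32851 promoters. By the same window, *Gsk3a* had a GC content of 54.3% and 14 CG sites, *Gsk3b* 63% and 21, *Dvl2* 62% and 20, and *Dvl3* 74% and 30, against medians of 52.7% and 7 over all promoters. *Gsk3b* alone of these held both the CCAAT box, 4 times, and the TATA box TATAAA, 1 time, which were found in 37.4% and 13.6% of promoters. The core of the TCF/LEF motif, CTTTG, was present 1 time each in *Gsk3a*, *Gsk3b* and *Dvl2* and was not found in *Dvl3*, while 53.9% of promoters held it. Windows were found for 7 of the 10 genes. *Axin1*, *Apc* and *Csnk1a1* had no entry in the table.

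In control embryos the levels spanned a wide range. *Csnk1e* was the highest at 111.3 ± 8.37 FPKM (SD, n = 3), followed by *Csnk1a1* at 39.4 ± 6.28 and *Gsk3b* at 29.8 ± 3.33, with no overlap between the libraries of neighbours. *Apc* (5.91 ± 2.37), *Axin1* (5.88 ± 1.5), *Dvl3* (3.53 ± 1.28) and *Dvl1* (2.91 ± 0.646) followed, and neighbours in this order overlapped. *Dvl2* (0.683 ± 0.386) and *Gsk3a* (0.493 ± 0.105) also overlapped each other and lay below *Dvl1*. *Axin2* was the lowest at 0.14 ± 0.0265 FPKM.

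**Figure D1:**
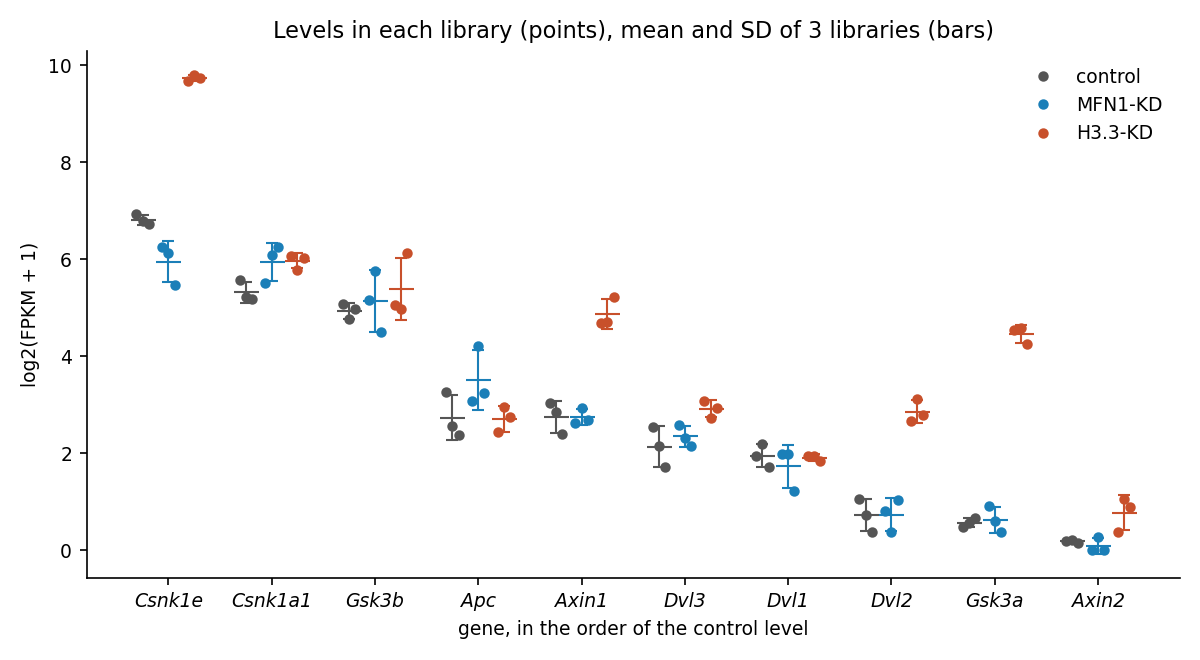
Level of each of the 10 genes on the log2(FPKM + 1) scale, with 3 libraries (points), the mean and the SD (bars) for control, MFN1-KD and H3.3-KD; genes are ordered by the control level. *Gsk3a*, *Axin1*, *Axin2*, *Csnk1e*, *Dvl2* and *Dvl3* in H3.3-KD lie above every other library of the same gene.

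In H3.3-KD, 4 of the 9 genes tested rose at an adjusted p under 0.05 and 0 fell (limma, Benjamini-Hochberg over 13011 genes). They were *Gsk3a*, *Csnk1e*, *Axin1* and *Dvl2*. Over all genes tested, 21.8% rose and 9.12% fell. At the study's threshold, more than 2-fold with an unadjusted p under 0.05, the same 4 genes rose and 0 fell, against 23.9% and 9.39% of all genes. Here the threshold was applied to limma values of FPKM + 1. The study applied it to DESeq2 results, so these counts are not its own calls. At an unadjusted p under 0.05 alone, 6 were higher and 0 were lower, against 28.9% and 13.2% of all genes. *Gsk3a* and *Dvl2* had a control mean under 1 FPKM and entered the test only through H3.3-KD, so a difference was built into their selection. Of the other 7, 2 rose. The median log2 fold change of the 9 genes was 0.78, beside 0.26 over all genes tested. Scaling the libraries by median ratios moved the latter to 0 and the calls over all genes from 2841 higher and 1187 lower to 2118 and 1748, while the calls of the 9 genes remained 4 and 0.

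In MFN1-KD, 0 of 9 genes were called in either direction by limma, where 1.15% of all genes rose and 2.2% fell. The study's threshold, again applied to limma values, also called 0 in either direction, against 5.02% higher and 9.05% lower over all genes. At an unadjusted p under 0.05, 1 gene was higher (*Csnk1a1*) and 1 lower (*Csnk1e*), against 9.21% and 14% of all genes. The median log2 fold change of the 9 was 0.05, beside -0.08 over all genes.

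The libraries of H3.3-KD and control did not overlap for 7 of the 10 genes, all higher in H3.3-KD: the 4 called and *Axin2*, *Csnk1a1* and *Dvl3*. Of the 9 tested, 6 were higher without overlap, where 34.5% of all genes tested were higher and 18.9% lower in this way. *Axin2* was not tested, and *Gsk3a* and *Dvl2* entered the test only through H3.3-KD, so a difference was built into their selection. For *Gsk3b*, *Apc* and *Dvl1* the groups overlapped. In MFN1-KD, *Csnk1e* was lower without overlap and the other 9 overlapped, where 16.8% of all genes were lower and 11.4% higher in this way.

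Of the glycogen synthase kinase 3 pair, *Gsk3a* rose in H3.3-KD, whereas its paralogue did not pass the test. *Gsk3a* (chromosome 7, 25228258 to 25237851, GRCm38) was at 0.39, 0.49 and 0.6 FPKM in control. The levels in MFN1-KD were 0.88, 0.52 and 0.3 FPKM. The levels in H3.3-KD were 22.39, 22.88 and 17.95 FPKM. The H3.3-KD libraries stood far above the 6 others, and MFN1-KD overlapped control. The mean of 21.1 ± 2.72 FPKM was 42.7 times the control mean, and the log2 fold change of FPKM + 1 was 3.88 ± 0.30 (SE, adjusted p = 4.4e-05, limma). The added 1 makes the fold change of a gene this low smaller than the ratio of means. In MFN1-KD the log2 fold change was 0.05 (95% interval -0.62 to 0.73, limma adjusted p = 0.946).

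*Gsk3b* (chromosome 16, 38089001 to 38246084), the major form in control, did not pass the test in either knockdown. It was at 32.64, 26.11 and 30.52 FPKM in control, and at 34.64, 53.28 and 21.67 FPKM in MFN1-KD. Its H3.3-KD libraries were at 32.36, 30.36 and 68.81 FPKM. All groups overlapped, and H3.3-KD replicate 3 was more than 2 times the other libraries of its group. The H3.3-KD log2 fold change was 0.45 (interval -0.41 to 1.30, limma adjusted p = 0.409), and that of MFN1-KD was 0.20 (interval -0.65 to 1.06, limma adjusted p = 0.797). Without each library in turn, the H3.3-KD value ranged from 0.08 to 0.66.

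*Gsk3a* held 1.65 ± 0.409% of the summed FPKM of *Gsk3a* and *Gsk3b* in control and 1.60 ± 0.783% in MFN1-KD (exact permutation p = 1). In H3.3-KD its share was 40.9, 43.0 and 20.7%, a mean of 34.9 ± 12.3% (exact permutation p = 0.1, two-sided, the smallest this design allows). The sum of the pair was 30.3 ± 3.3 FPKM in control and 64.9 ± 18.9 in H3.3-KD, 2.15 times as high (exact permutation p = 0.1). A share within a library does not change with how libraries are scaled. The GC content of the pair differs (59.8% in *Gsk3a* and 46.1% in *Gsk3b*), and its part in the share was not tested.

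**Figure D2:**
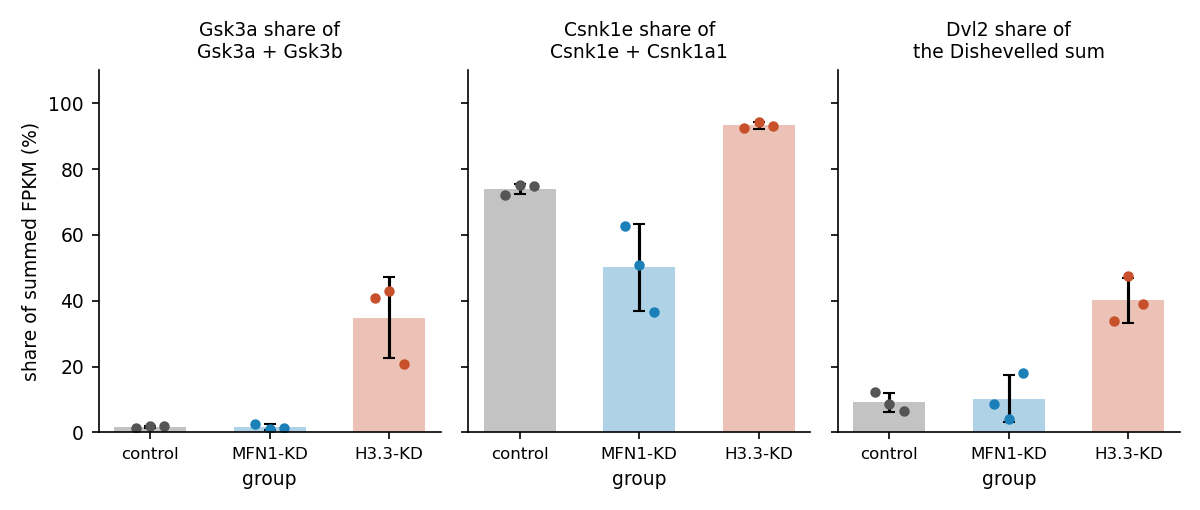
Share of 1 gene in the summed FPKM of the genes named (%, bars are means of 3 libraries, error bars SD, points libraries): *Gsk3a* of *Gsk3a* and *Gsk3b*, *Csnk1e* of *Csnk1e* and *Csnk1a1*, *Dvl2* of the 3 Dishevelled genes. Other casein kinase 1 genes, such as *Csnk1d*, are not in the sum. The shares in H3.3-KD lie above every control library in all 3 panels, and the *Csnk1e* share in MFN1-KD lies below every control library.

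*Csnk1e*, which encodes casein kinase 1ε, a kinase that also phosphorylates Dishevelled and the PERIOD clock proteins, had the highest mean of the 10 in every group, although in MFN1-KD its libraries overlapped those of *Csnk1a1*. *Csnk1e* (chromosome 15, 79417856 to 79455566) was at 120.57, 109.04 and 104.3 FPKM in control. Its MFN1-KD libraries were at 74.83, 69.41 and 43.45 FPKM. The levels in H3.3-KD were 817.91, 892.14 and 848.5 FPKM. The groups did not overlap, with H3.3-KD high, control between and MFN1-KD low. The H3.3-KD mean of 853 ± 37.3 FPKM was 7.66 times the control mean, and the log2 fold change was 2.93 ± 0.23 (limma adjusted p = 4.4e-05). By mean level it was entry 1210 from the top in control and entry 201 in H3.3-KD.

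In MFN1-KD the log2 fold change of *Csnk1e* was -0.86 ± 0.23 (interval -1.36 to -0.35), which missed the threshold (limma adjusted p = 0.0693, unadjusted p = 0.00359). With only genes of a mean of at least 10 FPKM tested, the adjusted p was 0.0426 (limma), and with libraries weighted by their quality it was 0.0376 (limma), at a log2 fold change of -0.66. In the other 17 of 19 alternatives it missed the threshold, with a limma adjusted p of up to 0.209.

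*Csnk1a1*, casein kinase 1α, phosphorylates β-catenin at its priming site. *Csnk1a1* was at 46.63, 36.21 and 35.34 FPKM in control. The levels in MFN1-KD were 44.38, 67.04 and 75.3 FPKM. Its H3.3-KD libraries were at 66.41, 54.3 and 64.64 FPKM. The H3.3-KD libraries all lay above control, while MFN1-KD replicate 1 overlapped it. The H3.3-KD log2 fold change was 0.64 ± 0.26 (interval 0.07 to 1.21, limma adjusted p = 0.0832), and that of MFN1-KD was 0.62 ± 0.26 (interval 0.05 to 1.19, limma adjusted p = 0.181). The H3.3-KD value passed in 3 alternatives (limma adjusted p = 0.0444 with only the 6 libraries compared, 0.00934 with library weights and 0.0324 with the GC and length trend removed). It missed the threshold in the other 16 of 19. It was 0.31 after median-ratio scaling (limma adjusted p = 0.416) and 0.22 after upper-quartile scaling.

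*Csnk1e* held 74.0 ± 1.61% of the summed FPKM of *Csnk1e* and *Csnk1a1* in control and 93.2 ± 0.924% in H3.3-KD. In MFN1-KD its share was 62.8, 50.9 and 36.6%, all below the lowest control library. Both differences gave an exact permutation p of 0.1 against control. Here too the GC content differs (56.4% in *Csnk1e* and 43.3% in *Csnk1a1*), and its part in the share was not tested. The sum of the pair was 151 ± 14.6 FPKM in control, 125 ± 10.1 in MFN1-KD, against 915 ± 31.1 in H3.3-KD.

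Among the scaffolds, *Axin1* rose in H3.3-KD, whereas *Apc* did not pass the test. AXIN1 is the scaffold on which the kinases meet β-catenin and is held to be scarce relative to the other parts of the complex. *Axin1* (chromosome 17, 26138688 to 26195811) was at 7.2, 6.18 and 4.25 FPKM in control and at 5.19, 6.66 and 5.46 FPKM in MFN1-KD. The levels in H3.3-KD were 24.84, 25.14 and 36.57 FPKM. Every H3.3-KD library lay above the 6 others, among which the groups overlapped. The ratio of means was 4.91 and the log2 fold change was 2.12 ± 0.30 (limma adjusted p = 0.00073). In MFN1-KD the interval was -0.67 to 0.66 around a value of -0.00 (limma adjusted p = 1).

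*Apc*, the tumor suppressor that binds β-catenin and AXIN, was at 8.61, 4.94 and 4.18 FPKM in control. Its MFN1-KD libraries were at 7.46, 17.65 and 8.43 FPKM. Its H3.3-KD libraries were at 4.4, 6.81 and 5.69 FPKM. The groups overlapped, and MFN1-KD replicate 2 was the highest library. The H3.3-KD log2 fold change was -0.02 (interval -0.89 to 0.85, limma adjusted p = 0.976), and that of MFN1-KD was 0.78 (interval -0.09 to 1.65, limma adjusted p = 0.269).

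*Axin2* was at most 1.1 FPKM in every library and was not tested. It was at 0.15, 0.16 and 0.11 FPKM in control and at 0.3, 1.1 and 0.86 FPKM in H3.3-KD. In MFN1-KD it was listed at 0 in 2 libraries and at 0.22 FPKM in replicate 2. The H3.3-KD libraries were above all others, at levels whose depth is unknown. Fitted with no filter on low values, among 32672 genes, its H3.3-KD log2 fold change was 0.59 ± 0.21 (limma adjusted p = 0.12).

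Of the Dishevelled genes, whose products carry the signal from Frizzled to the complex, *Dvl2* rose in H3.3-KD and the others did not pass the test. *Dvl2* (chromosome 11, 70000595 to 70012301) was at 1.08, 0.66 and 0.31 FPKM in control and at 0.75, 0.3 and 1.05 FPKM in MFN1-KD. The levels in H3.3-KD were 5.33, 7.72 and 5.91 FPKM. The H3.3-KD libraries lay above the 6 others. The ratio of means was 9.25 and the log2 fold change was 2.13 ± 0.34 (limma adjusted p = 0.0013). In MFN1-KD it was 0.01 (interval -0.73 to 0.76, limma adjusted p = 0.993).

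*Dvl3* was at 4.86, 3.43 and 2.3 FPKM in control and at 4.99, 4.0 and 3.46 FPKM in MFN1-KD. Its H3.3-KD libraries were at 7.48, 5.68 and 6.67 FPKM. H3.3-KD lay above control without overlap, and the ratio of means was 1.87. The log2 fold change of 0.78 ± 0.33 (interval 0.06 to 1.5) missed the threshold (limma adjusted p = 0.094), and passed it with library weights (limma adjusted p = 0.0187). The other 17 of 18 alternatives did not call it. With the GC and length trend removed the H3.3-KD value was 0.07 (limma adjusted p = 0.892). In MFN1-KD it was 0.21 (interval -0.51 to 0.94, limma adjusted p = 0.74).

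*Dvl1* was at 2.88, 3.57 and 2.28 FPKM in control and at 2.97, 2.97 and 1.34 FPKM in MFN1-KD. The levels in H3.3-KD were 2.88, 2.86 and 2.58 FPKM. All groups overlapped. The H3.3-KD log2 fold change was -0.04 (interval -0.78 to 0.70, limma adjusted p = 0.947), and that of MFN1-KD was -0.22 (interval -0.96 to 0.52, limma adjusted p = 0.738).

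The 3 Dishevelled genes together were at 7.12 ± 2.02 FPKM in control, 7.28 ± 1.43 in MFN1-KD, against 15.7 ± 0.55 in H3.3-KD (exact permutation p = 0.1 for the last). *Dvl2* held 9.07 ± 2.98% of this sum in control, 10.2 ± 7.05% in MFN1-KD, against 40.1 ± 6.83% in H3.3-KD. *Dvl1* held 42.0 ± 8.06% in control and 17.7 ± 0.671% in H3.3-KD. Both gave an exact permutation p of 0.1 for H3.3-KD against control. The *Dvl3* share was 49.0 ± 5.43% in control and 42.2 ± 6.56% in H3.3-KD (exact permutation p = 0.3).

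**Figure D3:**
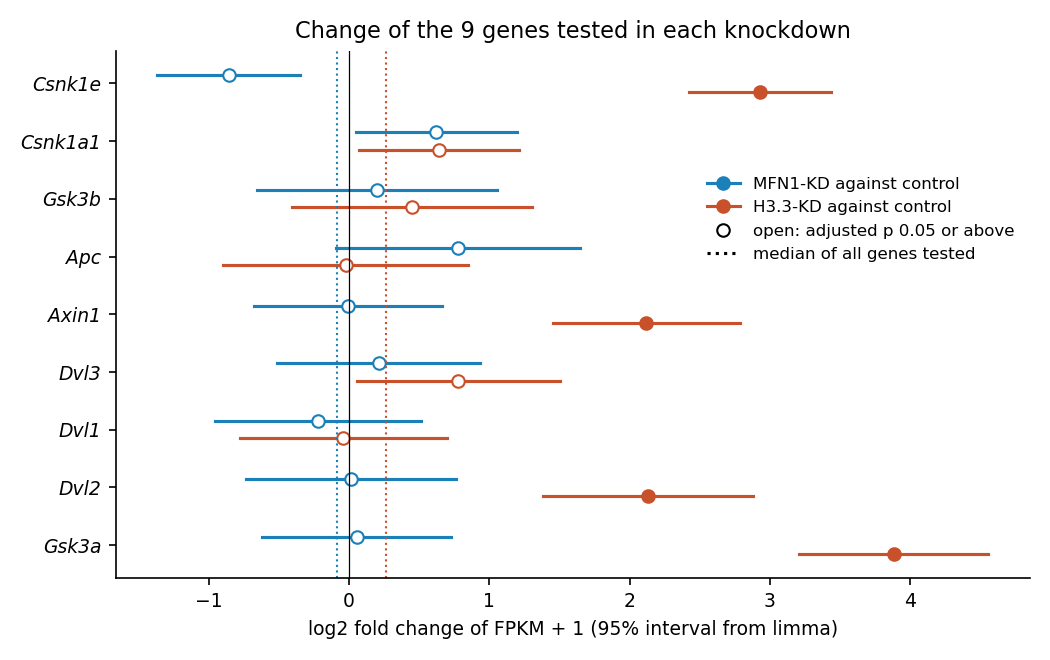
Log2 fold change of FPKM + 1 with its 95% interval for the 9 genes tested, MFN1-KD and H3.3-KD against control; filled points have an adjusted p under 0.05 and dotted lines are the medians of all genes tested, -0.08 and 0.26. The 4 filled points, *Csnk1e*, *Axin1*, *Dvl2* and *Gsk3a*, are all in H3.3-KD.

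Set directly against each other, the knockdowns differed in the same 4 genes, each lower in MFN1-KD. For *Gsk3a* and *Dvl2*, which entered the test only through H3.3-KD, a difference was built into the selection. The log2 difference of MFN1-KD from H3.3-KD was -3.83 for *Gsk3a* (limma adjusted p = 3.2e-05), -3.78 for *Csnk1e* (1.3e-05), -2.12 for *Axin1* (0.000498) and -2.12 for *Dvl2* (0.000944). Over all genes tested, 27.6% were lower and 11% were higher in MFN1-KD, or 3591 and 1437 genes, and 2720 and 2120 after median-ratio scaling. The other 5 genes missed the threshold, with *Apc* at 0.80 (limma adjusted p = 0.132) and *Dvl3* at -0.57 (limma adjusted p = 0.194). *Apc* passed after median-ratio scaling, at 1.14 (limma adjusted p = 0.0223), and after upper-quartile scaling, at 1.22 (limma adjusted p = 0.0204).

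Over all genes, changes in H3.3-KD moved with the GC content of transcripts. With the genes divided into 10 bins of equal size by GC content, the median change was -0.29 in the bin of lowest GC content, 0.85 in bin 9 and 1.10 in bin 10. The MFN1-KD medians were 0.24 in the lowest bin and -0.30 in bin 9, the bin of *Csnk1e*. The genes called were GC-rich: *Gsk3a* at 59.8%, *Dvl2* at 57.2%, *Axin1* at 56.6% and *Csnk1e* at 56.4%. So were *Dvl1* at 59.3% and *Dvl3* at 55.2%, which were not called, while *Gsk3b* (46.1%), *Apc* (44.3%) and *Csnk1a1* (43.3%) were lower. *Gsk3a* lay 2.78 above the median of its bin, *Csnk1e* 2.07, *Dvl2* 1.28 and *Axin1* 1.27, whereas *Dvl3* lay at -0.07 and *Dvl1* at -1.14 from theirs. When the dependence on GC content and transcript length was removed from every library, the 4 remained higher, at 2.90 for *Gsk3a* (limma adjusted p = 0.00033), 2.08 for *Csnk1e* (0.00041), 1.35 for *Dvl2* (0.0127) and 1.28 for *Axin1* (0.00784). In the same fit *Dvl1* passed as lower, at -1.0 (limma adjusted p = 0.0479).

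**Figure D4:**
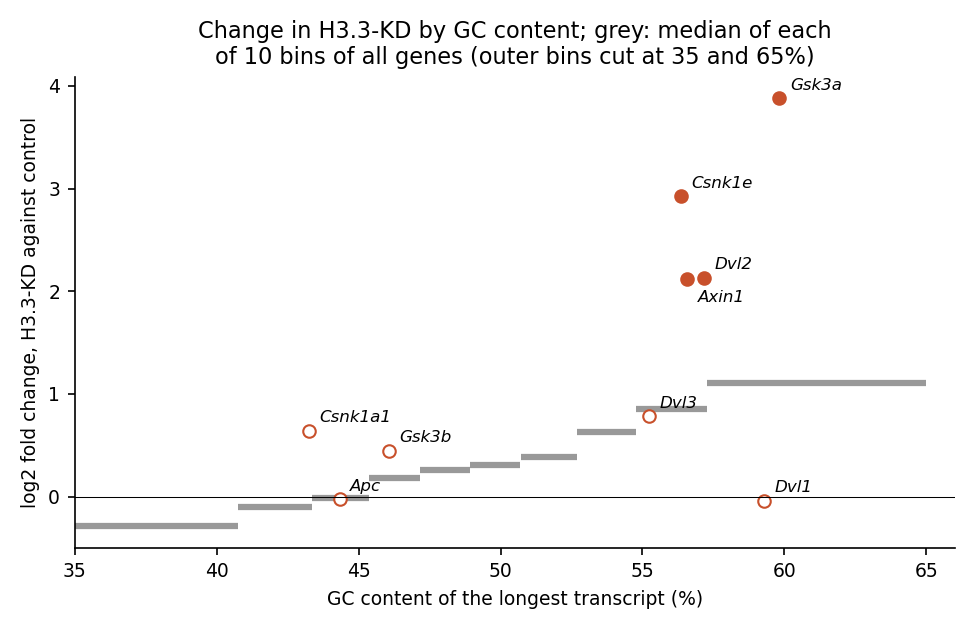
Log2 fold change in H3.3-KD against control of the 9 genes tested (points, filled where the adjusted p is under 0.05) by the GC content of the longest transcript, with the median of each of 10 bins of all genes (grey lines). *Gsk3a*, *Csnk1e*, *Axin1* and *Dvl2* lie above the median of their bin, *Dvl3* lies on it and *Dvl1* below.

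Summed levels of transcripts of other stages were higher in H3.3-KD. The summed level of 16 oocyte-stored transcripts was 99.7 to 119 FPKM in control, 48.2 to 112 in MFN1-KD and 144 to 269 in H3.3-KD. For 14 genes of the 2-cell stage it was 29.4 to 34.5, 24.2 to 100 and 225 to 566 FPKM. Without overlap with control, H3.3-KD had 3 of the 16 higher and 1 lower, and 4 of the 14 higher and 0 lower, beside 34.5% and 18.9% of all genes tested. *Tdpoz4* alone was at 13.9 ± 4.92 FPKM in control and 339 ± 128 in H3.3-KD. The part of these in the results was not tested. In pools of embryos, a change in the number of cells that use a gene and a change in RNA per cell cannot be told apart.

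Some of the genes share bases with a gene on the other strand, and the strand setting of the counting is not given in the sources used here. The antisense gene in *Gsk3a*, *9130221H12Rik*, was at 0.463 ± 0.442 FPKM in control and 0.613 ± 0.382 in H3.3-KD. *Acadvl*, which runs into the end of *Dvl2*, was at 4.8 ± 1.13 and 3.93 ± 2.47 FPKM. *Gm16059*, antisense to *Csnk1e*, was at 0.257 ± 0.176 and 0.383 ± 0.125 FPKM. The part of reads from these partners in the values of *Gsk3a*, *Dvl2* and *Csnk1e* was not tested.

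For the genes of largest change, the closest patterns over the 9 libraries were sought among 7902 genes that averaged 5 FPKM or more. Likeness was the root mean square difference of log2(FPKM + 1) after each gene was centred on its own mean. Closest to *Gsk3a* were *Phldb3* (0.173), *Gm7695* (0.222) and *Gm13573* (0.248). Closest to *Csnk1e* were *Tomm40* (0.208), which encodes the pore of the outer mitochondrial membrane, *Vcp-rs* (0.235) and *Itgb4* (0.239). *Tomm40* was at 22.9 FPKM in control, 9.28 in MFN1-KD, against 161 in H3.3-KD.

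The rest of the pathway was read from 121 listed genes, of which 55 were tested. In H3.3-KD, 17 rose and 4 fell (30.9% and 7.27% of the 55, beside 21.8% and 9.12% of all genes tested), with a median log2 fold change of 0.78 beside 0.26 over all genes. Of the 55, 3 were tested only through H3.3-KD. In MFN1-KD 1 rose and 0 fell, beside 1.15% and 2.2% of all genes tested. An unadjusted p under 0.05 was reached by 20 of 55, beside 23.2% of all genes, and the median was 0.39 beside -0.08 (limma). Above the median of all genes lay 43 of the 55 in MFN1-KD, against 38 with H3.3-KD. Median-ratio scaling changed the H3.3-KD counts to 12 higher and 8 lower.

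Few genes of the extracellular side passed the limit of 1 FPKM. Of 21 genes for ligands and their secretion 2 were tested, and of 12 extracellular inhibitors 1 was, with 0 called in either knockdown at an adjusted p under 0.05 (limma), and an unadjusted p under 0.05 in MFN1-KD for 0 of these genes, against 2 with H3.3-KD. Of 15 receptor genes 5 were tested. *Fzd9*, a Frizzled receptor tested only through H3.3-KD, rose there by 2.43 ± 0.55 on the log2 scale (limma adjusted p = 0.00771), from 0.55, 0.25 and 0.22 FPKM in control to 1.88, 6.73 and 15.68. Its H3.3-KD libraries spread widely and all lay above control, and its call was lost with the GC and length trend removed (1.26, limma adjusted p = 0.11). Of 9 genes of receptor turnover and R-spondins 2 were tested, and *Lgr4*, a receptor for R-spondins, fell from 4.10 ± 0.299 to 1.20 ± 0.196 FPKM, a log2 fold change of -1.22 ± 0.28 (limma adjusted p = 0.00905).

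β-catenin itself, *Ctnnb1*, was at 145.46, 95.08 and 76.83 FPKM in control. The levels in MFN1-KD were 187.77, 224.5 and 314.49 FPKM. Its H3.3-KD libraries were at 67.04, 44.61 and 69.48 FPKM. Every MFN1-KD library lay above control and every H3.3-KD library below it. Neither comparison with control passed an adjusted p under 0.05. The log2 fold change was 1.21 ± 0.30 in MFN1-KD (limma adjusted p = 0.0587) and -0.77 ± 0.30 in H3.3-KD (limma adjusted p = 0.0773). The study's threshold, applied to limma values, was passed in MFN1-KD (2.31-fold, limma unadjusted p = 0.00247), as by 5.02% of all genes on the higher side, and was missed in H3.3-KD. Between the knockdowns the log2 difference was 1.98 (limma adjusted p = 0.000767), higher in MFN1-KD. At an adjusted p under 0.05, the value in MFN1-KD passed in 2 of 19 alternatives and that in H3.3-KD in 6, among them median-ratio scaling (-1.11, limma adjusted p = 0.0286).

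Of the 33 listed genes for β-catenin and other cytoplasmic partners, 25 were tested. In H3.3-KD 9 rose and 1 fell (36% and 4%, beside 21.8% and 9.12% of all genes tested). *Csnk1d*, casein kinase 1δ and the closest relative of *Csnk1e*, rose from 12.5 ± 1.95 to 58.2 ± 16.8 FPKM, a log2 fold change of 2.11 ± 0.29 (limma adjusted p = 0.00064). *Usp34*, a deubiquitinase that acts on AXIN, fell from 23.0 ± 4.73 to 6.70 ± 1.13 FPKM (-1.63 ± 0.35, limma adjusted p = 0.00589). *Ppp2ca*, the catalytic subunit of protein phosphatase 2A, was the 1 gene of these that rose in MFN1-KD, from 18.7 ± 6.61 to 47.4 ± 9.57 FPKM (1.33 ± 0.29, limma adjusted p = 0.0419). This call was lost in 13 of 19 alternatives, and over all 19 the limma adjusted p ranged from 0.0114 to 0.175. *Ppp2ca* also rose in H3.3-KD, to 62.9 ± 8.54 FPKM (1.74 ± 0.29, limma adjusted p = 0.00169).

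Of 19 nuclear factors 15 were tested, and 6 rose and 2 fell in H3.3-KD (40% and 13.3%, beside 21.8% and 9.12% of all genes tested). Of the 15, 2 were tested only through H3.3-KD, so a difference was built into their selection. *Ctbp1*, a corepressor, rose from 1.86 ± 0.546 to 15.1 ± 2.12 FPKM (2.50 ± 0.32, limma adjusted p = 0.000462). *Ep300*, a histone acetyltransferase and coactivator, fell from 13.8 ± 3.10 to 4.57 ± 1.57 FPKM (-1.42 ± 0.32, limma adjusted p = 0.00719). Of 12 textbook target genes 5 were tested, and 1 rose in H3.3-KD (20%, beside 21.8% of all genes tested). It was *Ccnd1*, cyclin D1, at 1.41 ± 0.545 FPKM in control and 8.56 ± 3.94 in H3.3-KD (1.91 ± 0.43, limma adjusted p = 0.0079). It missed the threshold in 1 of 18 alternatives, the replicate block with the GC and length trend removed (limma adjusted p = 0.0551).

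**Figure D5:**
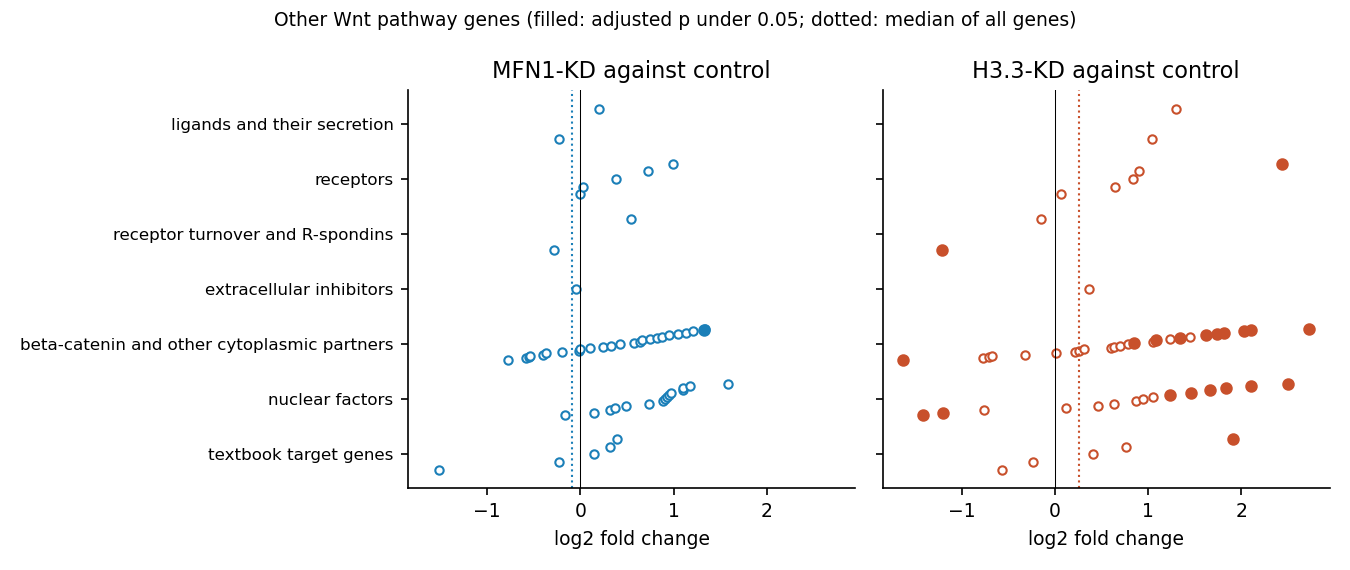
Log2 fold change against control of the 55 other Wnt pathway genes tested, by role (rows), in MFN1-KD (left) and H3.3-KD (right); filled points have an adjusted p under 0.05 and dotted lines are the medians of all genes tested. In MFN1-KD 1 point is filled, and in H3.3-KD 17 are filled on the higher side and 4 on the lower.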

How the data were processed

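RNA-seq of 9 pools of 8-cell embryos was used, 3 each of control, MFN1-KD and H3.3-KD, grouped by the sample titles. Per the labels and the study's methods, the authors trimmed reads with cutadapt 1.16 and mapped them to mm10 with STAR. The values deposited by the authors are FPKM, rounded to 2 decimals. Which program and annotation made them, and with what strand setting, is not given in the sources used here. Counts were not recovered, so depth is unknown and no counting interval is given.

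Genes that averaged 1 FPKM or more across the 9 libraries were tested by limma-trend (limma 3.58.1 under R 4.3.3, trend and robust options). The fit used log2(FPKM + 1) in all groups together and no covariate, and p-values were adjusted by Benjamini-Hochberg over all genes tested. The rest was done in Python 3.11.15 with numpy 2.4.6, pandas 2.3.3, scipy 1.17.1 and matplotlib 3.10.9. The script was tested on simulated data. Shares, sums and the targeted genes were compared by two-sided exact permutation tests. GC content and length are from GENCODE M21 (GRCm38), in which 53647 entries were matched, and promoters from RefSeq.

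All 10 members are named, as are the targeted genes and *Ctnnb1*. From the other Wnt genes, the gene with the smallest p in each direction was named for each role and knockdown where called, and for 2 members the 3 closest patterns. The members and lists were chosen with earlier results of these data known. Alternatives tried were a pseudocount of 0.1, no filter, a minimum mean of 10 FPKM, median-ratio and upper-quartile scaling, only the 6 libraries compared, a replicate block, library weights, removal of the GC and length trend (splines with 5 degrees of freedom), the block with that removal, and each library left out in turn. The same alternatives were applied to the other named genes and the Wnt list after seeing the data.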

Additional observations from a re-analysis of the deposited data

Results flagged for a closer look

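Among the members and *Ctnnb1*, 5 genes differed between the knockdowns, tested as MFN1-KD against H3.3-KD in limma on log2(FPKM + 1). Over all genes tested, 27.6% were lower and 11% were higher in MFN1-KD, and other genes of the Wnt list differed as well. *Gsk3a* differed by -3.83, *Axin1* by -2.12, *Csnk1e* by -3.78 and *Dvl2* by -2.12, each lower in MFN1-KD. Because *Gsk3a* and *Dvl2* entered the test only through H3.3-KD, a difference was built into their selection. *Ctnnb1* differed by 1.98, higher in MFN1-KD, and every library of MFN1-KD lay above control and every library of H3.3-KD below it. The control libraries cancel in this difference.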

How the results depend on the processing

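*Gsk3a* and *Dvl2* passed the main filter only through H3.3-KD, so a difference was built into their selection. The 4 rises in H3.3-KD and the same 4 differences between knockdowns passed under every alternative in which the gene was tested. Over these, log2 fold changes in H3.3-KD ranged from 2.90 to 5.16 (*Gsk3a*), 2.08 to 2.99 (*Csnk1e*), 1.28 to 2.28 (*Axin1*) and 1.35 to 3.15 (*Dvl2*), with highest limma adjusted p of 0.00164, 0.00156, 0.0197 and 0.029. With a mean of at least 10 FPKM only 4 members were tested: 1 was called lower in MFN1-KD, 2 higher in H3.3-KD (2 also at the study's threshold) and 2 lower in MFN1-KD than in H3.3-KD. Library weights called 1 lower in MFN1-KD (*Csnk1e*). Either scaling called 1 higher in MFN1-KD than in H3.3-KD (*Apc*). Removing the GC and length trend called 1 lower in H3.3-KD (*Dvl1*), by both thresholds, and with the replicate block added 1 by the study's threshold. The replicate block alone left 0 higher and 0 lower among the members in MFN1-KD, 4 and 0 with H3.3-KD, and 0 and 4 between knockdowns. Libraries with the same number deviated together by r of -0.05 to 0.16, over 0.1 in 2 of 9 pairs. For libraries with different numbers r was -0.12 to 0.07, over 0.1 in 0 of 18 pairs. These values cannot settle whether the numbers pair the libraries. Leaving out each library in turn, members called at the study's threshold in MFN1-KD ranged from 0 to 1 higher (without control replicate 1) and 0 to 1 lower (without MFN1-KD replicate 1).

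Directions that turned were all of genes not called. In MFN1-KD, *Axin1* was at 0.049 under median-ratio and 0.046 under upper-quartile scaling, *Dvl2* at -0.0024 with library weights and -0.090 with the GC trend removed, and *Gsk3b* at -0.19 with it removed. In H3.3-KD, *Apc* was at 0.17 with library weights and 0.21 with the trend removed. Between knockdowns, *Gsk3b* was at 0.14, *Csnk1a1* at 0.37 and *Dvl1* at 0.091 under median-ratio scaling, and at 0.23, 0.46 and 0.16 under upper-quartile scaling. *Gsk3b* was at 0.14 with library weights, and *Dvl1* at 0.68 and *Dvl3* at 0.10 with the trend removed. The values with the trend removed were the same with the replicate block. Leaving out 1 library gave -0.085 to 0.18 for *Gsk3a*, -0.11 to 0.52 for *Gsk3b*, -0.19 to 0.13 for *Axin1*, -0.35 to 0.035 for *Dvl1* and -0.15 to 0.20 for *Dvl2* in MFN1-KD, -0.20 to 0.24 for *Apc* and -0.16 to 0.080 for *Dvl1* in H3.3-KD, and -0.56 to 0.12 for *Gsk3b*, -0.17 to 0.20 for *Csnk1a1* and -0.31 to 0.074 for *Dvl1* between knockdowns. The cause was not tested.

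Of the other Wnt genes, those higher in MFN1-KD (1) became 0 with no filter, the 6 libraries, the replicate block, the GC and length trend removed or both of these together, 2 with a minimum of 10 FPKM, 3 with either scaling and 8 with library weights, and 1 was lower with that minimum and with weights. Those higher in H3.3-KD (17) became 10 with that minimum, 32 with weights and 11 with block and trend removal, and those lower (4) became 8 with either scaling and 7 with weights. Without 1 library they ranged from 0 to 1 higher in MFN1-KD and from 10 to 23 higher and 3 to 5 lower in H3.3-KD, with 10 higher without control replicate 2 and 11 without control replicate 3. Calls over all genes in MFN1-KD, 150 higher and 286 lower, fell to 0 and 0 with only the 6 libraries compared, with the replicate block and trend removal together, without control replicate 2 and without control replicate 3. They fell to 0 and 1 without H3.3-KD replicate 2, 0 and 2 with no filter, 6 and 25 with the replicate block, 9 and 30 without H3.3-KD replicate 1 and 22 and 37 without control replicate 1, and with library weights were 570 and 823. Unknown depth limits *Gsk3a*, *Dvl2* and *Axin2* in control most, as their FPKM are low.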
